A study of Mus musculus with 6 samples.

Results

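Chemokines are small secreted or membrane-tethered proteins, and chemokine receptors are the cell-surface proteins that bind them. The 63 genes described here are every symbol of the deposited count table that is named as a chemokine ligand (the Ccl, Cxcl, Cx3cl and Xcl genes, Ppbp and Pf4), a conventional receptor (the Ccr, Cxcr and Cx3cr genes) or an atypical receptor (the Ackr genes), out of 55286 symbols. They were chosen by name, with earlier results of these data known, and comprise 42 ligands and 21 receptors. RNA had been sequenced from 3 mouse groups of 2 libraries each. Libraries titled as direct reprogramming carry the cell type entry "Transdifferentiontion cell" and are called transdifferentiated cells here. The second group is labelled Muscle and the third MEF, for mouse embryonic fibroblasts. The labels used here do not give the conversion factor, the strain, or the age and source of the muscle. They also do not say that the 2 libraries of a group came from different cultures or mice, so p-values measure the spread between these libraries, which may be technical.

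Total counts lay between 16817033 and 24584951 per library, so a count of 0 allows a level of up to 0.128 to 0.182 CPM (the depth-scaled count, here with edgeR's TMM factors), which is 3 counts and covers counting error only. No library stood apart from its group: the rank correlation of log2 CPM was at least 0.972 within groups and at most 0.938 between groups. Skeletal muscle markers (11 of 11, Myod1, Myog and Ckm among them) were all called higher than in MEF both in transdifferentiated cells and in muscle. The summed level of 10 fibroblast markers was 12966 and 14783 CPM in transdifferentiated cells, 11897 and 6481 CPM in muscle and 23184 and 14251 CPM in MEF. Of those 10, 2 were higher and 3 lower in transdifferentiated cells against MEF, 6 higher and 0 lower against muscle (edgeR, 0 at an unadjusted p below 0.05 and 0 with DESeq2), and 6 lower in muscle against MEF. For scale, the share of the 17400 tested genes called in transdifferentiated cells against MEF was 15.9% upward and 11.3% downward. Against muscle it was 7.58% upward and 2.46% downward. For muscle against MEF it was 17.3% upward and 18.3% downward.

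As background, a chemokine gradient steers cells that carry the matching receptor, and each receptor works through inhibitory G proteins that turn on small GTPases of the cytoskeleton. Fibroblasts and other stromal cells make ligands such as Cxcl12, Ccl2 and Cxcl1, whereas most conventional receptors are carried by leukocytes. Atypical receptors bind ligands without G-protein signalling and clear them. In injured muscle, ligands of the Ccl2 group draw in monocytes, and Cxcl12 acts through Cxcr4 on migrating muscle precursors.

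Several of the ligands that differed most between the groups lie side by side in the CXC ligand cluster of chromosome 5. In the GENCODE M21 annotation of mm10, Cxcl5 lies at 90759360 to 90761624, Ppbp at 90768518 to 90770063 and Pf4 at 90772435 to 90773383, with Cxcl3, Cxcl15, Cxcl1 and Cxcl2 following on the same plus strand. Starts of 5 of these genes are shown because Cxcl1, Cxcl3 and Ppbp on the one hand and Pf4 on the other moved in opposite directions between transdifferentiated cells and MEF. Each line runs 5′ to 3′ over 120 bases of the RefSeq GRCm38.p6 promoter, beginning 150 bases before the annotated start, and capitals mark matches to the kappaB motif (GGG, any 2 bases, then TTTCC) on either strand.
Cxcl1 (chr5:90891095-90891214, plus strand): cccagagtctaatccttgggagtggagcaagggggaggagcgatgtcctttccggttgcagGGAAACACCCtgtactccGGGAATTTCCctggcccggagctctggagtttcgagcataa
Cxcl2 (chr5:90903749-90903868, plus strand): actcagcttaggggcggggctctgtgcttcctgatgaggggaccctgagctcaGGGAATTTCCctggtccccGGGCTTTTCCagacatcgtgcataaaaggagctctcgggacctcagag
Cxcl3 (chr5:90785951-90786070, plus strand): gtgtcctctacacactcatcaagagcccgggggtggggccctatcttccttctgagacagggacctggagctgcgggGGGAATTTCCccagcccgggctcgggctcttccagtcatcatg
Ppbp (chr5:90768368-90768487, plus strand): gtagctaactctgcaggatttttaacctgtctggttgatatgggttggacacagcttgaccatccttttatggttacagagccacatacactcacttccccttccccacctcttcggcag
Pf4 (chr5:90772285-90772404, plus strand): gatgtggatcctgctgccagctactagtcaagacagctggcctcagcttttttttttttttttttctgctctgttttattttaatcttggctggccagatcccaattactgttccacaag
Cxcl1 and Cxcl2 each held 2 matches, which do not overlap each other, Cxcl3 held 1, and no match to these letters lay in the windows of Ppbp and Pf4. RefSeq promoters of 300 bases (250 before the start and 50 after it) were matched by symbol for 47 of the 63 genes. Ccl2, Ccl7, Ccl11 and Cxcl5 were among the genes without a matched promoter, so theirs were not searched or shown. The kappaB letters lay in 6 of 54 such promoters, 11.1%, against 1.63% of all 32851 promoters, and the 6 genes were Ccl20, Ccl9, Ccr3, Cxcl1, Cxcl2 and Cxcl3. Matches to the interferon response letters (TTTC, any 2 bases, then TTTC) lay in 5.56% of the promoters of these genes (Ccl19, Cxcl10 and Cxcl14) against 3.44% of all promoters. The E-box letters CANNTG, the core bound by myogenic bHLH factors, lay in 77.8% against 72.3%. The motifs were searched on both strands and a match is a description of the letters only.

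Of the 63 genes, 13 had no counts in any library, 18 had counts too low to pass the filter on low counts, and 32 were tested with edgeR's quasi-likelihood test, adjusted by the Benjamini-Hochberg method over all 17400 tested genes. Genes are called higher or lower at an adjusted p below 0.05. Transdifferentiated cells against MEF gave 10 genes higher, 7 lower and 15 not called, where 15.9% of all tested genes were higher and 11.3% lower. Transdifferentiated cells against muscle gave 23 higher and 0 lower, where 7.58% of all tested genes were higher and 2.46% lower. The count of 0 stood beside 1 gene lower at an unadjusted p below 0.05, Ccl2, and 0 lower with DESeq2. Muscle against MEF gave 2 higher and 25 lower, where 17.3% and 18.3% of all tested genes were called. Leaving out transdifferentiated replicate 1 or MEF replicate 1 gave 6 genes higher against MEF, and leaving out muscle replicate 2 gave 14 higher against muscle. Below, a number in parentheses after a library left out is the adjusted p without it, and adjusted p over the alternatives is given as a range. Ratios against muscle that rest on 1 count (Ccl9, Cxcl1, Ccl17 and Ppbp) have no finite value without the muscle library that holds it, and without the other muscle library the ratios of transdifferentiated cells over muscle were 124 for Ccl9, 43.6 for Cxcl1, 33.5 for Ccl17 and 7.32 for Ppbp. The exact Poisson intervals given with ratios cover counting error only, treat reads as independent molecules and leave out the spread between libraries. Transdifferentiated cells and muscle were compared with the same MEF libraries, so those 2 comparisons are not independent of each other.

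**Figure D1:**
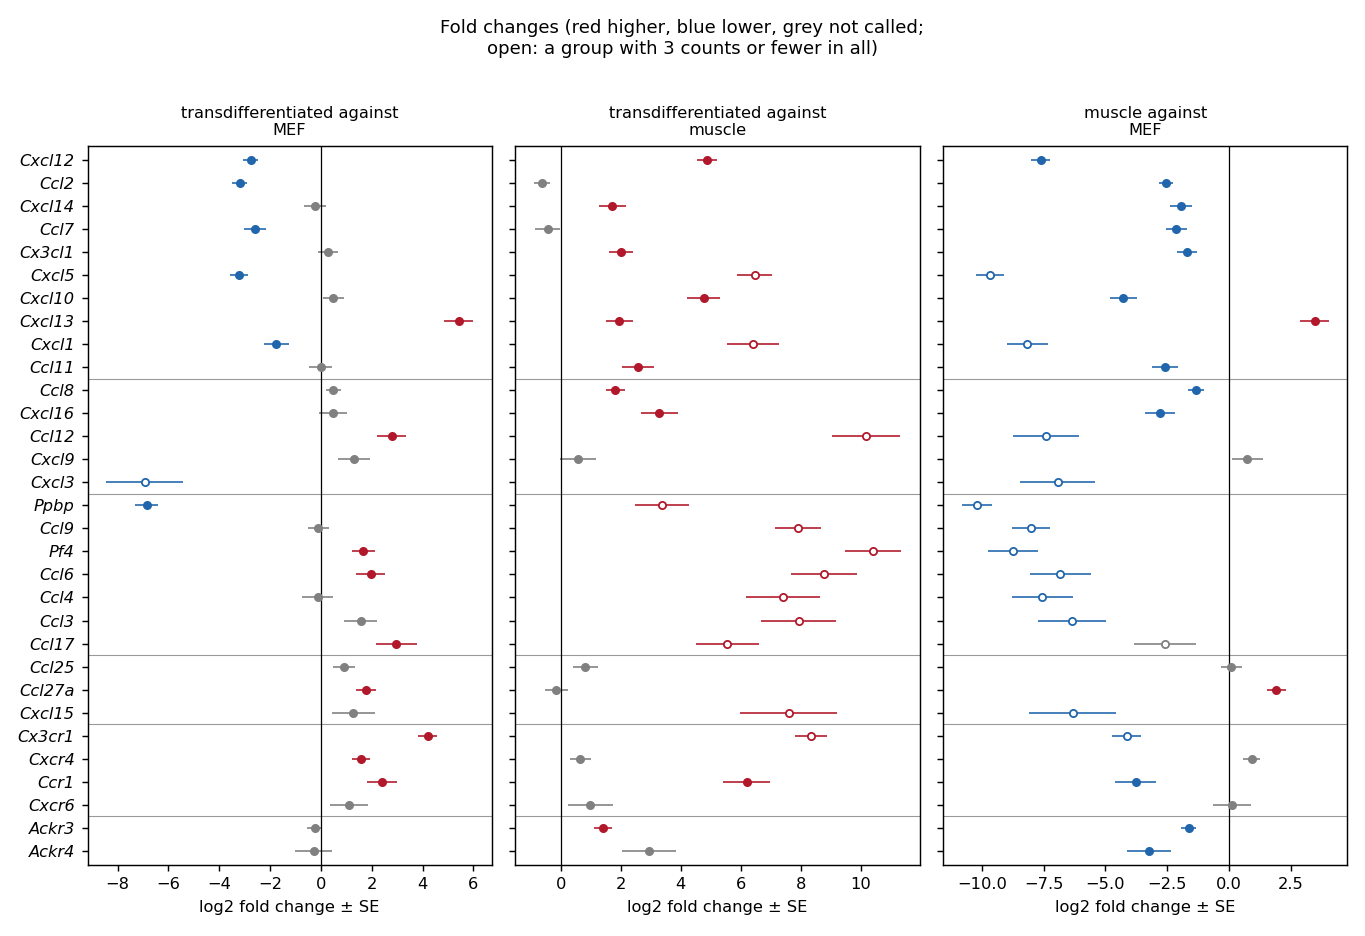
Log2 fold change with its standard error (horizontal axes) for 31 of the 32 tested genes, ordered down the page by role, in the 3 comparisons. Red marks genes called higher, blue called lower and grey not called, and open symbols mark comparisons with 3 counts or fewer in all in a group, whose position depends on the fit; no blue symbol appears for transdifferentiated cells against muscle.

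Among the ligands that stromal cells are known for, 10 of 15 were tested. Against MEF, 5 fell in transdifferentiated cells (Cxcl12, Ccl2, Ccl7, Cxcl5 and Cxcl1) and 1 rose (Cxcl13). Against muscle, 8 of the 10 were higher in transdifferentiated cells and 0 lower (edgeR, 1 at an unadjusted p below 0.05 and 0 with DESeq2). Summed over the 15 genes, the level was 286 and 323 CPM in transdifferentiated cells, 128 and 107 CPM in muscle and 1287 and 952 CPM in MEF. These are bulk samples, in which fewer cells of a type and less RNA per cell cannot be told apart.

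Cxcl12 (chromosome 6, 117168535 to 117181367, plus strand), the ligand of Cxcr4 that holds and guides stem and progenitor cells, had 71.5 and 87.8 CPM in transdifferentiated cells, 2.64 and 2.80 CPM in muscle and 649.9 and 426 CPM in MEF. The 3 groups did not overlap, with transdifferentiated cells between muscle and MEF. Cxcl12 was lower in transdifferentiated cells than in MEF (log2 fold change -2.75 ± 0.29 SE, adjusted p = 0.000207), higher in transdifferentiated cells than in muscle (log2 fold change 4.87 ± 0.33 SE, adjusted p = 0.000141) and lower in muscle than in MEF (log2 fold change -7.63 ± 0.37 SE, adjusted p = 2.35e-06). All 3 calls were kept under each of the 11 alternatives run.

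Ccl2, the main monocyte attractant acting through Ccr2, had 23.0 and 27.9 CPM in transdifferentiated cells, 33.9 and 45.4 CPM in muscle and 264 and 204 CPM in MEF. Both transdifferentiated libraries lay below both muscle libraries, and MEF lay far above both groups. It fell in transdifferentiated cells against MEF (log2 fold change -3.20 ± 0.29 SE, adjusted p = 8.88e-05) and in muscle against MEF (log2 fold change -2.56 ± 0.29 SE, adjusted p = 0.000197), while transdifferentiated cells and muscle differed by log2 fold change -0.64 ± 0.27 SE, adjusted p = 0.216, which is not a call. Ccl7, a neighbouring gene with the same receptor, had 31.7 and 12.2 CPM in transdifferentiated cells, 29.3 and 30.8 CPM in muscle and 111 and 154 CPM in MEF. The 2 transdifferentiated libraries differed from each other and lay on either side of the muscle libraries, and both MEF libraries were higher. Ccl7 fell in transdifferentiated cells against MEF (log2 fold change -2.59 ± 0.44 SE, adjusted p = 0.00266; -3.43 without transdifferentiated replicate 1) and in muscle against MEF (log2 fold change -2.14 ± 0.43 SE, adjusted p = 0.00461), and was not called between transdifferentiated cells and muscle (log2 fold change -0.45 ± 0.41 SE, adjusted p = 0.648). Ccl2 and Ccl7 are 2 of the 9 tested genes not called between transdifferentiated cells and muscle.

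Of the tested ligands that act on neutrophils through Cxcr2, Cxcl5, Cxcl1, Cxcl3 and Ppbp all fell in transdifferentiated cells against MEF. Cxcl5 had 6.18 and 3.82 CPM in transdifferentiated cells, 0.0426 and 0.0608 CPM in muscle and 52.9 and 39.7 CPM in MEF, and Cxcl1 had 3.59 and 1.84 CPM in transdifferentiated cells, 0 and 0.0608 CPM in muscle and 10.3 and 8.01 CPM in MEF. For both genes the groups were ordered the same way, with muscle at 0 or 1 count per library, transdifferentiated cells between, and MEF highest. Cxcl5 fell in transdifferentiated cells against MEF (log2 fold change -3.21 ± 0.35 SE, adjusted p = 0.000266) and was 98.0-fold (95% exact Poisson interval 26.8 to 815) higher than in muscle. Cxcl1 fell against MEF (log2 fold change -1.75 ± 0.49 SE, adjusted p = 0.027), a call lost without transdifferentiated replicate 2 (0.108) or MEF replicate 1 (0.0801), where adjusted p ran from 0.00231 to 0.108 over the 11 alternatives. It was 106-fold (95% exact Poisson interval 18.6 to 4219) higher in transdifferentiated cells than in muscle. MEF levels over muscle levels were 916-fold (95% exact Poisson interval 253 to 7571) for Cxcl5 and 362-fold (95% exact Poisson interval 64.6 to 14352) for Cxcl1 (149-fold without muscle replicate 1).

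Ppbp, known from platelets as the precursor of a Cxcr2 ligand, had 0.393 and 0.242 CPM in transdifferentiated cells, 0.0426 and 0 CPM in muscle and 34.3 and 39.9 CPM in MEF. It was high in MEF alone and at most 7 counts in any other library. Among the genes with counts in both groups, it had the largest fall in transdifferentiated cells against MEF (log2 fold change -6.86 ± 0.46 SE, adjusted p = 1.34e-05). The 12 counts of the transdifferentiated libraries were 12.4-fold (95% exact Poisson interval 1.84 to 532) higher than the 1 count of muscle, a call (adjusted p = 0.0495) that DESeq2 did not make (0.102) and that was lost without transdifferentiated replicate 1 (0.18), transdifferentiated replicate 2 (0.0611), muscle replicate 1 (0.121) or muscle replicate 2 (0.236), with adjusted p from 0.0181 to 0.236 over the 10 alternatives that gave a value. In MEF the level was 1488-fold that of muscle (95% exact Poisson interval 267 to 58831; 875-fold without muscle replicate 2).

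Pf4, the platelet factor that macrophages also make, begins 2.372 kb after the end of Ppbp. It had 11.2 and 6.43 CPM in transdifferentiated cells, 0 and 0 CPM in muscle and 2.53 and 2.96 CPM in MEF. Transdifferentiated cells were highest, muscle had no counts, and MEF lay between, so the order of transdifferentiated cells and MEF was the reverse of that for Ppbp. Pf4 was higher in transdifferentiated cells than in MEF (log2 fold change 1.68 ± 0.44 SE, adjusted p = 0.0262), a call lost without transdifferentiated replicate 1 (0.159) or MEF replicate 1 (0.0834), with adjusted p from 0.00463 to 0.159 over the 11 alternatives. Against muscle it was at least 56.8-fold higher in transdifferentiated cells, and MEF was at least 17.7-fold above muscle. Of 6 megakaryocyte markers, 3 were tested and Treml1 was higher in transdifferentiated cells than in either other group by edgeR (adjusted p = 0.0233 against MEF and 0.0452 against muscle), calls that DESeq2 did not make, while Gp9 had no counts in any library, and the 6 summed to 5.84 and 10.3 CPM in transdifferentiated cells, 7.75 and 9.48 CPM in muscle and 4.95 and 3.01 CPM in MEF. Cxcl3, another Cxcr2 ligand of this cluster, had no counts in transdifferentiated cells or muscle and 0.825 and 0.728 CPM in MEF, which is at least 4.95-fold higher in MEF than in transdifferentiated cells (adjusted p = 0.0155; not called without transdifferentiated replicate 1 (0.0611) or transdifferentiated replicate 2 (0.0606), with adjusted p from 0.00249 to 0.0611 over the 11 alternatives).

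**Figure D2:**
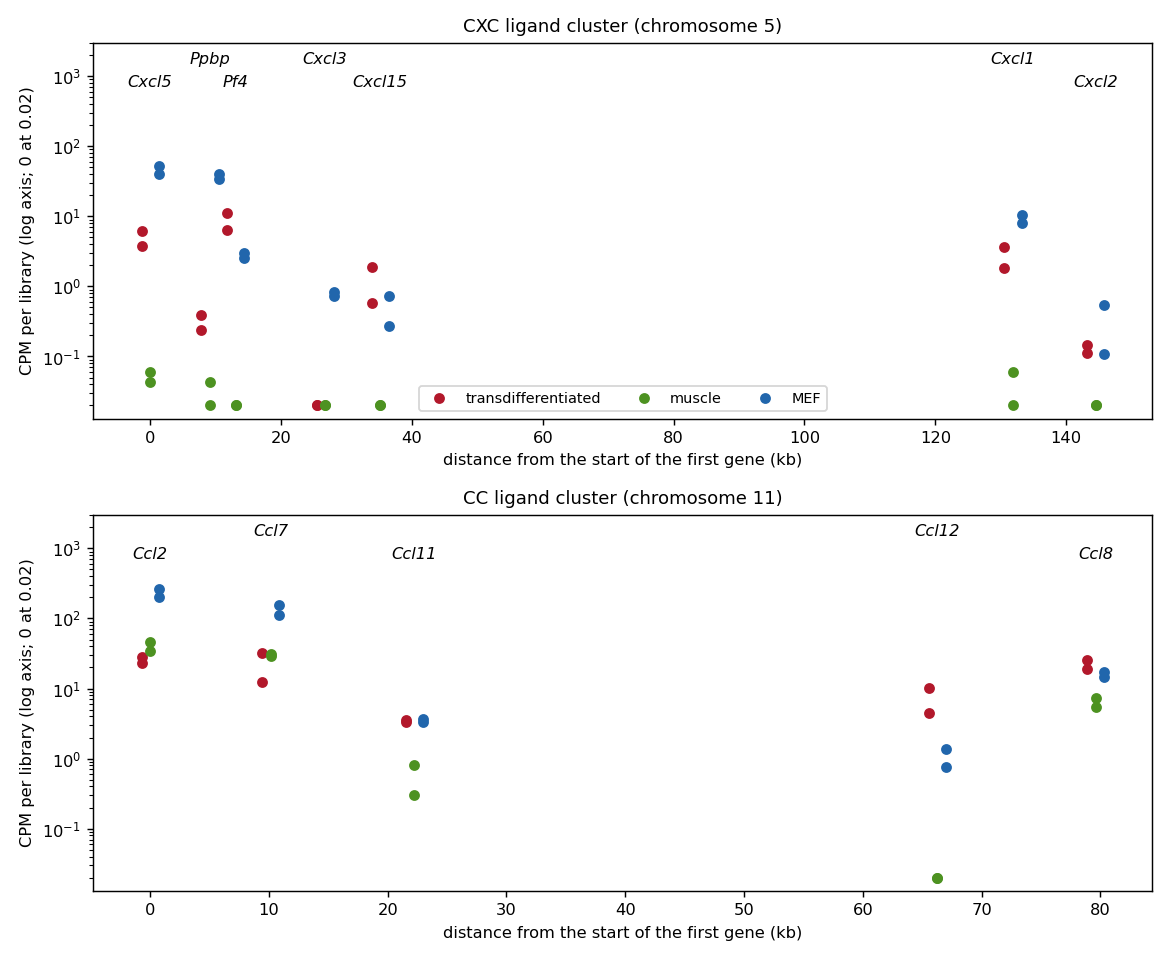
CPM per library (vertical axis, log scale, 0 counts drawn at the bottom) against the distance in kb from the start of the first gene, for the CXC ligand cluster of chromosome 5 and the CC ligand cluster of chromosome 11, with transdifferentiated cells, muscle and MEF from left to right at each gene. MEF points are highest at Ppbp, and at the adjacent Pf4 the transdifferentiated points are highest.

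Cxcl14, a ligand widely made by stroma and epithelium, had 77.9 and 86.4 CPM in transdifferentiated cells, 36.6 and 13.6 CPM in muscle and 119.7 and 73.3 CPM in MEF. Transdifferentiated cells lay within the range of MEF and above both muscle libraries. It was not called against MEF (log2 fold change -0.23 ± 0.44 SE, adjusted p = 0.739) and was higher than in muscle (log2 fold change 1.71 ± 0.45 SE, adjusted p = 0.0457), a call lost without transdifferentiated replicate 2 (0.0659) or muscle replicate 2 (0.23), with adjusted p from 4.98e-06 to 0.23 over the 11 alternatives; without muscle replicate 1 the log2 fold change was 2.60. Cx3cl1, the membrane-tethered ligand of Cx3cr1, had 50.3 and 81.6 CPM in transdifferentiated cells, 20.7 and 12.5 CPM in muscle and 69.2 and 39.5 CPM in MEF. Its transdifferentiated and MEF levels overlapped, and both groups lay above muscle. It was higher in transdifferentiated cells than in muscle (log2 fold change 1.99 ± 0.40 SE, adjusted p = 0.0151), which was not called without muscle replicate 2 (0.137) (range 1.39e-07 to 0.137 over the 11 alternatives).

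Cxcl10, an interferon-induced ligand of Cxcr3, had 7.75 and 8.42 CPM in transdifferentiated cells, 0.426 and 0.122 CPM in muscle and 6.49 and 5.05 CPM in MEF. Transdifferentiated cells and MEF were near each other and muscle was lower. It was higher in transdifferentiated cells than in muscle (log2 fold change 4.76 ± 0.55 SE, adjusted p = 0.000994; 5.98 without muscle replicate 1) and not called against MEF (log2 fold change 0.49 ± 0.42 SE, adjusted p = 0.435). Ccl11, which recruits eosinophils through Ccr3, had 3.54 and 3.34 CPM in transdifferentiated cells, 0.809 and 0.304 CPM in muscle and 3.63 and 3.30 CPM in MEF. The same arrangement of groups held for Ccl11, which was higher in transdifferentiated cells than in muscle (log2 fold change 2.56 ± 0.53 SE, adjusted p = 0.0169; 3.47 without muscle replicate 1), though not without muscle replicate 2 (0.121), with adjusted p from 0.000392 to 0.121 over the 11 alternatives.

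Cxcl13, the B cell attractant that acts through Cxcr5, ran the other way. It had 10.3 and 10.1 CPM in transdifferentiated cells, 3.62 and 1.64 CPM in muscle and 0.275 and 0.194 CPM in MEF. Transdifferentiated cells were highest and MEF lowest, with no overlap among the 3 groups. It rose in transdifferentiated cells against MEF (log2 fold change 5.42 ± 0.58 SE, adjusted p = 0.00022) and in muscle against MEF (log2 fold change 3.48 ± 0.58 SE, adjusted p = 0.00184; 2.78 without muscle replicate 1). It was also higher in transdifferentiated cells than in muscle (log2 fold change 1.94 ± 0.45 SE, adjusted p = 0.0265; 2.63 without muscle replicate 1), a call lost without transdifferentiated replicate 1 (0.0582), transdifferentiated replicate 2 (0.0572) or muscle replicate 2 (0.192) (range 0.00101 to 0.192 over the 11 alternatives). Its receptor Cxcr5 had 1 count over the 6 libraries.

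**Figure D3:**
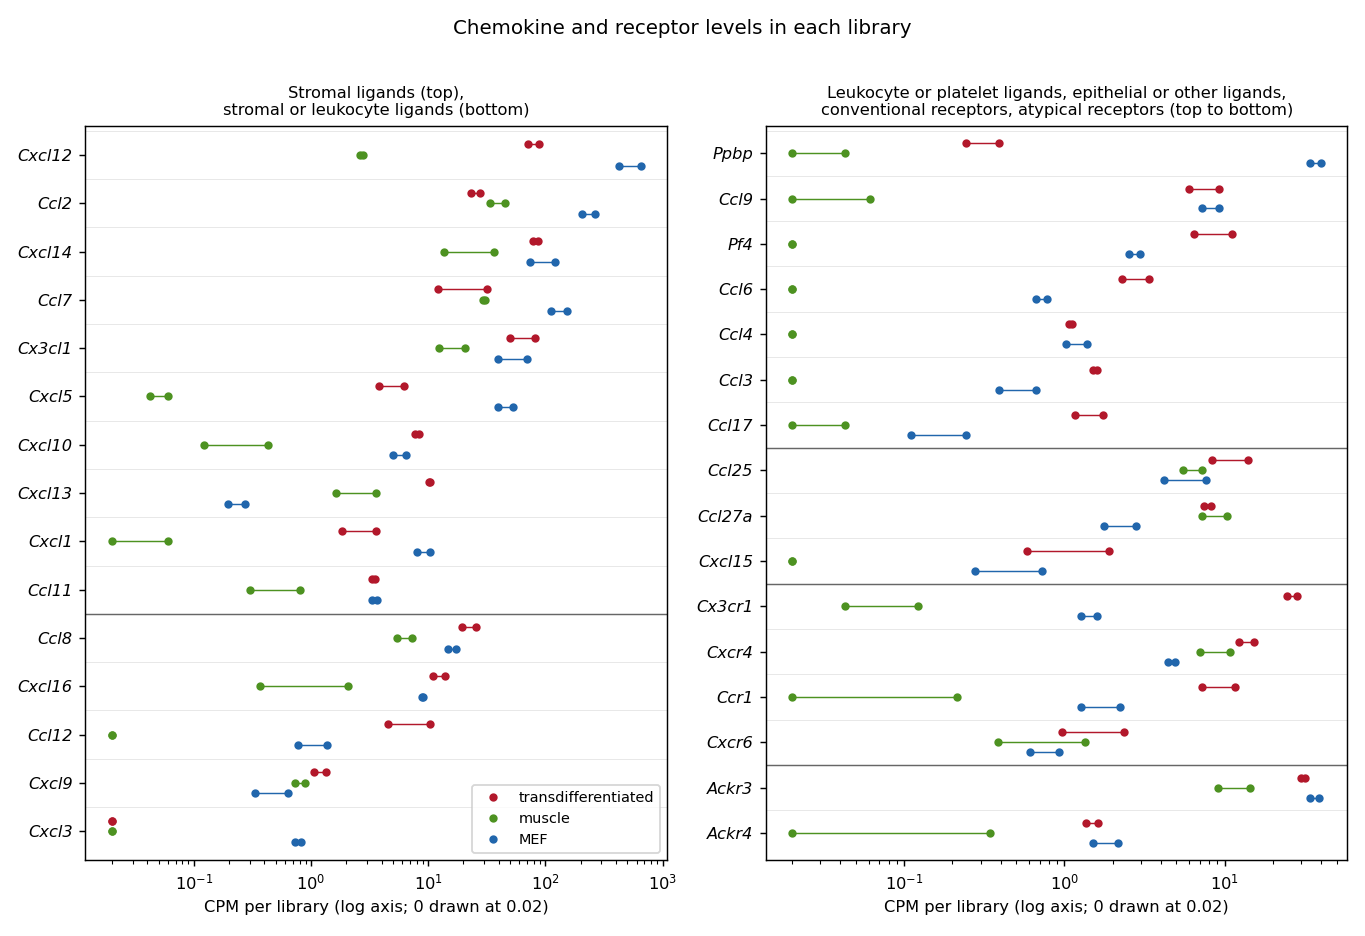
CPM (horizontal axis, log scale, 0 counts drawn at the left) of 31 of the 32 tested genes in each of the 6 libraries, with the 2 libraries of a group joined by a line and genes down the page by role. Muscle is lowest for most ligands, and transdifferentiated cells are highest for Cx3cr1 and Ccr1.

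Of the 9 ligands made by both stromal cells and leukocytes, 5 were tested, and the summed level of all 9 was 51.8 and 36.4 CPM in transdifferentiated cells, 10.3 and 6.51 CPM in muscle and 26.9 and 30.7 CPM in MEF. Against MEF, 1 rose in transdifferentiated cells (Ccl12), 1 fell (Cxcl3) and 3 were not called. Against muscle, 3 were higher in transdifferentiated cells (Ccl12, Ccl8 and Cxcl16) and 0 lower (0 at an unadjusted p below 0.05 and 0 with DESeq2). Ccl12, a mouse ligand of Ccr2, had 10.3 and 4.50 CPM in transdifferentiated cells, 0 and 0 CPM in muscle and 0.770 and 1.36 CPM in MEF. Every transdifferentiated library was above every MEF library, and muscle had none. It rose against MEF (log2 fold change 2.78 ± 0.59 SE, adjusted p = 0.0105; 2.07 without transdifferentiated replicate 1) and was at least 47.8-fold higher in transdifferentiated cells than in muscle (at least 29.0-fold without transdifferentiated replicate 1). In the same cluster on chromosome 11, Ccl2 and Ccl7 fell in the same comparison with MEF. The genes on either side of Ccl12, Ccl11 and Ccl8, were not called there (log2 fold change -0.01 ± 0.47 SE and 0.49 ± 0.31 SE).

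Ccl8, which in mouse acts through Ccr8, had 25.6 and 19.2 CPM in transdifferentiated cells, 7.29 and 5.41 CPM in muscle and 14.7 and 17.2 CPM in MEF, so transdifferentiated cells lay above both other groups. It was higher than in muscle (log2 fold change 1.82 ± 0.32 SE, adjusted p = 0.00773), a call lost without muscle replicate 2 (0.0976) (range 2.96e-05 to 0.0976 over the 11 alternatives), and was not called against MEF (log2 fold change 0.49 ± 0.31 SE, adjusted p = 0.278). Cxcl16, a membrane-tethered ligand of Cxcr6, had 13.8 and 11.03 CPM in transdifferentiated cells, 2.09 and 0.365 CPM in muscle and 9.02 and 8.83 CPM in MEF. The 2 muscle libraries differed by several fold and both lay below the other groups. It was higher in transdifferentiated cells than in muscle (log2 fold change 3.28 ± 0.61 SE, adjusted p = 0.0108; 5.06 without muscle replicate 1 and 2.56 without muscle replicate 2). Cxcl9, an interferon-induced ligand of Cxcr3, stayed between 0.330 and 1.35 CPM in all libraries and was not called in any comparison.

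Of the 11 ligands known from leukocytes or platelets, 7 were tested. All 7 were higher in transdifferentiated cells than in muscle, and the 11 summed to 28.6 and 18.9 CPM in transdifferentiated cells, 0.0852 and 0.0608 CPM in muscle and 46.8 and 54.5 CPM in MEF, most of the MEF sum being Ppbp. None of the 11 had counts in both muscle libraries. The 7 passed the filter on low counts through the other groups, so a lower call against muscle was not open to them. Against MEF, 3 rose (Pf4, Ccl6 and Ccl17), Ppbp fell and 3 were not called. Both transdifferentiated libraries lay below both MEF libraries in this sum, to which Ppbp alone gave 34.3 and 39.9 CPM in MEF. In the sum of macrophage markers both transdifferentiated libraries lay above both MEF libraries. Of 19 macrophage markers tested, 16 were in transdifferentiated cells above their MEF level by the same test and 17 above their muscle level, with summed levels over 20 markers of 1066 and 921 CPM in transdifferentiated cells, 24.8 and 16.3 CPM in muscle and 111 and 102 CPM in MEF. In muscle the listed markers Adgre1, Tyrobp and Ptprc had no counts, and in MEF Itgam had none. In muscle against MEF, 14 macrophage markers were lower and 1, Cd163, was higher. The part of such cells in these ligand levels was not tested.

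Ccl9, a myeloid ligand of Ccr1, had 9.26 and 5.997 CPM in transdifferentiated cells, 0 and 0.0608 CPM in muscle and 7.21 and 9.22 CPM in MEF. Transdifferentiated and MEF levels overlapped, and muscle had 1 count in all, so that the level in transdifferentiated cells was 299.8-fold (95% exact Poisson interval 53.4 to 11880.2) that of muscle. Ccl6, a second Ccr1 ligand found in rodents, had 3.37 and 2.27 CPM in transdifferentiated cells, 0 and 0 CPM in muscle and 0.660 and 0.776 CPM in MEF. It was higher in transdifferentiated cells than in MEF (log2 fold change 1.96 ± 0.58 SE, adjusted p = 0.0382), a call lost on leaving out any 1 of transdifferentiated replicate 1 (0.185), transdifferentiated replicate 2 (0.0547), MEF replicate 1 (0.131) or MEF replicate 2 (0.0883), with adjusted p from 0.026 to 0.185 over the 11 alternatives. Against muscle it was at least 18.2-fold higher in transdifferentiated cells.

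Ccl3 and Ccl4, inflammatory ligands made by activated macrophages and lymphocytes, were at low levels. Ccl3 had 1.52 and 1.596 CPM in transdifferentiated cells, 0 and 0 CPM in muscle and 0.660 and 0.388 CPM in MEF, and Ccl4 had 1.07 and 1.11 CPM in transdifferentiated cells, 0 and 0 CPM in muscle and 1.38 and 1.02 CPM in MEF. Neither had a count in muscle. The levels in transdifferentiated cells were at least 10.03-fold and at least 7.02-fold those of muscle for Ccl3 and for Ccl4 (adjusted p = 0.00614 and 0.00782), the Ccl4 call being lost without muscle replicate 1 (0.0504) (range 2.23e-05 to 0.0504 over the 11 alternatives). Ccl17, a T cell attractant acting through Ccr4, had 1.74 and 1.16 CPM in transdifferentiated cells, 0.0426 and 0 CPM in muscle and 0.110 and 0.243 CPM in MEF. Transdifferentiated cells were above the other groups, each of which had at most 5 counts in a library. The calls against MEF (log2 fold change 2.97 ± 0.80 SE, adjusted p = 0.0238; 3.64 without MEF replicate 2) and against muscle (ratio 57.0-fold (95% exact Poisson interval 9.82 to 2294), adjusted p = 0.0108) were lost, against MEF, without transdifferentiated replicate 1 (0.142), transdifferentiated replicate 2 (0.0543), MEF replicate 1 (0.137) or MEF replicate 2 (0.0576) (range 0.0129 to 0.142 over the 11 alternatives) and, against muscle, without muscle replicate 1 (0.0608) or muscle replicate 2 (0.0932) (range 0.000175 to 0.0932 over the 11 alternatives).

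Of 7 ligands known from epithelium or other tissues, 3 were tested. Ccl27a, an epithelial ligand of Ccr10, had 7.41 and 8.27 CPM in transdifferentiated cells, 7.24 and 10.3 CPM in muscle and 1.76 and 2.81 CPM in MEF. Transdifferentiated cells and muscle overlapped, and both were above MEF. It rose in transdifferentiated cells against MEF (log2 fold change 1.77 ± 0.39 SE, adjusted p = 0.0105; not called without MEF replicate 1 (0.0545), range 0.000821 to 0.0545 over the 11 alternatives) and in muscle against MEF (log2 fold change 1.93 ± 0.40 SE, adjusted p = 0.00511). Exons of Ccl27a overlap Il11ra1 on the other strand and Ccl27b is a near-identical copy, so its reads are uncertain. Ccl25, a thymic and gut ligand of Ccr9, lay between 4.18 and 14.0 CPM and was not called in any comparison. Its exons overlap Elavl1 on the other strand. Cxcl15, known from mouse lung, had 1.91 and 0.580 CPM in transdifferentiated cells, 0 and 0 CPM in muscle and 0.275 and 0.728 CPM in MEF, and its call against muscle (at least 8.02-fold higher in transdifferentiated cells, adjusted p = 0.0234) was lost without transdifferentiated replicate 1 (0.0814), muscle replicate 1 (0.119) or muscle replicate 2 (0.101) (range 3.46e-05 to 0.119 over the 11 alternatives). The bound was at least 3.74-fold without transdifferentiated replicate 1 and at least 12.3-fold without transdifferentiated replicate 2.

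Of the 17 conventional receptors, 5 were tested. Against MEF, 4 of them rose in transdifferentiated cells, Cx3cr1, Ccr1 and Cxcr4 among them, and 0 fell (edgeR, 0 at an unadjusted p below 0.05 and 0 with DESeq2). Against muscle, 3 were higher, Cx3cr1 and Ccr1 among them, and 0 lower by the same 3 counts. The summed level of the 17 was 65.6 and 54.3 CPM in transdifferentiated cells, 8.44 and 13.4 CPM in muscle and 8.14 and 10.9 CPM in MEF. The summed macrophage markers given above were also highest in transdifferentiated cells. They were lower in muscle than in MEF, whereas the receptor sum overlapped between muscle and MEF. The part of macrophages in these receptor levels was not tested.

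Cx3cr1 (chromosome 9, 119901616 to 120069879, minus strand), the fractalkine receptor of monocytes, macrophages and microglia, had 28.4 and 24.6 CPM in transdifferentiated cells, 0.0426 and 0.122 CPM in muscle and 1.27 and 1.601 CPM in MEF. Transdifferentiated cells lay far above the other groups, and MEF above muscle, with no overlap. It rose in transdifferentiated cells against MEF (log2 fold change 4.20 ± 0.38 SE, adjusted p = 7.60e-05) and was 351-fold (95% exact Poisson interval 119.6 to 1703) higher than in muscle, where 3 counts were found. The fitted log2 fold change against muscle was 8.33, 7.69 without muscle replicate 1 and 9.08 without muscle replicate 2, and was a call under all 11 alternatives. Among single markers of macrophages, C1qa, a complement component, had 43.6 and 48.8 CPM in transdifferentiated cells, 0.0426 and 0.0608 CPM in muscle and 1.27 and 1.46 CPM in MEF, and Csf1r, the receptor for the macrophage growth factor, had 47.9 and 63.9 CPM in transdifferentiated cells, 0.682 and 0.669 CPM in muscle and 11.8 and 10.9 CPM in MEF. Both of these markers had the same order of groups as Cx3cr1.

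Ccr1, a myeloid receptor for Ccl3, Ccl6 and Ccl9, had 11.6 and 7.25 CPM in transdifferentiated cells, 0.213 and 0 CPM in muscle and 1.27 and 2.23 CPM in MEF. It was higher in transdifferentiated cells than in MEF (log2 fold change 2.42 ± 0.59 SE, adjusted p = 0.0155), a call lost without transdifferentiated replicate 1 (0.0502) (range 2.41e-05 to 0.0502 over the 11 alternatives). It was also higher than in muscle (log2 fold change 6.20 ± 0.79 SE, adjusted p = 0.00169; 5.42 without muscle replicate 2), and without muscle replicate 1, the only muscle library with counts, adjusted p was 0.005 (range 1.38e-17 to 0.00877 over the 11 alternatives).

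Cxcr4 (chromosome 1, 128588199 to 128592293, minus strand), the Cxcl12 receptor of leukocytes and muscle precursors, had 12.4 and 15.3 CPM in transdifferentiated cells, 6.99 and 10.8 CPM in muscle and 4.46 and 4.90 CPM in MEF. Transdifferentiated cells were above muscle and muscle above MEF in every library. It rose in transdifferentiated cells against MEF (log2 fold change 1.56 ± 0.35 SE, adjusted p = 0.0109), while it was not called against muscle (log2 fold change 0.64 ± 0.34 SE, adjusted p = 0.344) or in muscle against MEF (log2 fold change 0.92 ± 0.35 SE, adjusted p = 0.0705). Its ligand Cxcl12 had the reverse standing in transdifferentiated cells against MEF. Cxcr6, the Cxcl16 receptor of T cells, lay between 0.383 and 2.36 CPM and was not called in any comparison.

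**Figure D4:**
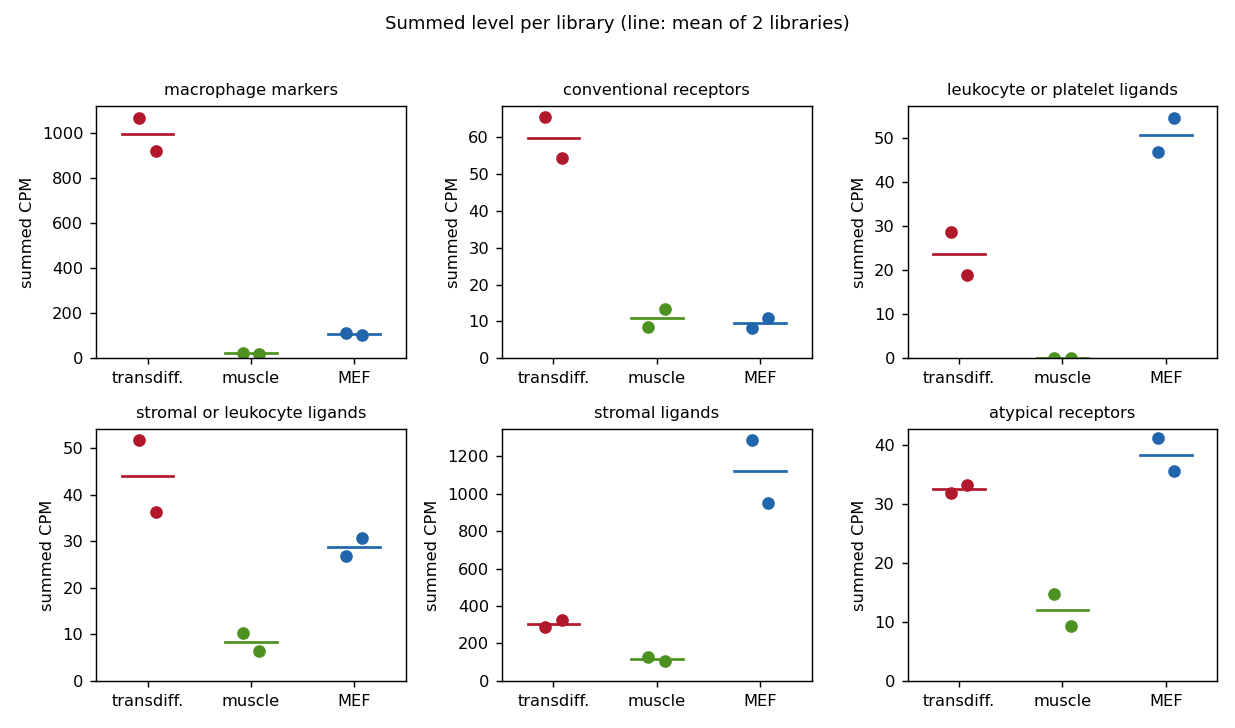
Summed CPM (vertical axes, linear) per library for macrophage markers and for 5 roles of chemokine and receptor genes, with transdifferentiated cells, muscle and MEF from left to right and a line at each mean of 2 libraries. Stromal ligands are highest in MEF, while macrophage markers and conventional receptors are highest in transdifferentiated cells.

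Both tested atypical receptors were lower in muscle than in MEF. Ackr3, which scavenges Cxcl12, had 29.9 and 31.7 CPM in transdifferentiated cells, 14.3 and 9.06 CPM in muscle and 38.8 and 34.0 CPM in MEF. Transdifferentiated cells were just below MEF and above muscle. It was higher in transdifferentiated cells than in muscle (log2 fold change 1.39 ± 0.30 SE, adjusted p = 0.0203), a call lost without transdifferentiated replicate 2 (0.0515) or muscle replicate 2 (0.205) (range 0.00125 to 0.205 over the 11 alternatives), and was not called against MEF (log2 fold change -0.24 ± 0.29 SE, adjusted p = 0.592). Ackr4, which scavenges Ccl19, Ccl21 and Ccl25, had 1.63 and 1.35 CPM in transdifferentiated cells, 0.341 and 0 CPM in muscle and 2.15 and 1.5 CPM in MEF. Transdifferentiated cells overlapped MEF, and Ackr4 was not called between transdifferentiated cells and muscle (log2 fold change 2.93 ± 0.90 SE, adjusted p = 0.0806). It fell in muscle against MEF (log2 fold change -3.22 ± 0.89 SE, adjusted p = 0.0212; -2.39 without muscle replicate 2), where muscle replicate 1 alone had counts, and the fall was not called without muscle replicate 2 (0.0656) (range 0.000353 to 0.0656 over the 11 alternatives).

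Several receptors that match the ligands above had few or no reads. Cxcr2, the receptor of Cxcl1, Cxcl3, Cxcl5 and the Ppbp product, had no counts in any library, as did Cxcr1, Ccr3 and Ccr4. Ccr2, the receptor of Ccl2, Ccl7 and Ccl12, had 13 counts in transdifferentiated cells, 0 in muscle and 8 in MEF. Cxcr3, the receptor of Cxcl9 and Cxcl10, had 6 counts in all 6 libraries. Ccr9, the Ccl25 receptor of gut-homing T cells, had 7 and 8 counts in muscle and none in transdifferentiated cells or MEF, and its exons overlap Slc6a20a on the other strand. Ccr10 had 32 counts in all, Ccr7 21, Ackr1 16, Ackr2 5, Ccr6 2 and Ccr8 1.

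Among ligands that were not tested, Ccl20 had 34 counts in all, Ccl5 29, Ccl28 20, Cxcl2 18, Cxcl11 7, Ccl22 3, Cxcl17 1 and Ccl21a 1. Ccl5 and Cxcl2 had no count in muscle, and Cxcl11 was found in transdifferentiated cells alone, with 1 and 6 counts. MEF replicate 2 held 24 of the 34 Ccl20 counts and 11 of the 18 Cxcl2 counts. Ccl1, Ccl19, Ccl21b, Ccl21c, Ccl21d, Ccl24, Ccl26, Ccl27b and Xcl1 had none in any library.

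Levels of different genes were set against each other per kilobase of merged exon length, on the scale of CPM per kb (mean ± SD, n = 2). In transdifferentiated cells the order was Cxcl14 (45.0 ± 3.27), Ccl8 (43.9 ± 8.79), Ccl7 (27.4 ± 17.2) and Ccl2 (22.4 ± 3.01), and neither the first pair nor the second differed beyond its spread. Muscle was led by Ccl7 (37.5 ± 1.28) and Ccl2 (34.8 ± 7.18), which did not differ beyond their spread, followed by Cxcl14 (13.7 ± 8.90) and Ccl8 (12.4 ± 2.59). MEF was led by Ccl2 (205 ± 37.5) and Ccl7 (165 ± 37.7), whose spreads overlapped, then Cxcl12 (65.8 ± 19.4) and Cxcl14 (52.8 ± 18.0), whose spreads also overlapped. The highest receptor per kb was Ackr3 in transdifferentiated cells (9.20 ± 0.370) and in MEF (10.9 ± 1.01). In muscle Cxcr4 (4.93 ± 1.5) and Ackr3 (3.49 ± 1.11) did not differ beyond their spread, and muscle replicate 1 had more of Ackr3. Merged exons of all isoforms make Cxcl12 long, which lowers its value on this scale.

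Muscle against MEF had 20 ligands and 5 receptors lower and 2 ligands higher (Cxcl13 and Ccl27a). Those of the 25 lower genes that were not called on leaving out some 1 library included Ackr4 as above, Ccl8 without muscle replicate 2 (0.108), Cx3cl1 without muscle replicate 2 (0.0882), Cxcl14 without muscle replicate 2 (0.0519), Cxcl15 without muscle replicate 1 (0.102), muscle replicate 2 (0.082) or MEF replicate 2 (0.0648) and Cxcl3 without muscle replicate 1 (0.0765) or muscle replicate 2 (0.0666), where the values in parentheses are adjusted p. Over the alternatives (11, or 10 for Cxcl15) their adjusted p ran from 3.39e-08 to 0.108. The comparison of MEF with muscle is also in the authors' deposited table, which lists 22 of the 63 genes among its 2806. All 19 of those that were tested here have the opposite sign to muscle over MEF, so the authors' deposited table gives MEF over muscle. Cxcl12 has a log2 fold change of 7.58 (SE 0.54) in the authors' deposited table, with an adjusted p of 6.98e-44.

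The genes around chemokine signalling are given from named lists, with the median log2 fold change of each list beside that of all tested genes (0.07 for transdifferentiated cells against MEF, 0.03 against muscle and 0 for muscle against MEF). Calls in these lists stand beside background shares of 15.9% upward and 11.3% downward for transdifferentiated cells against MEF. The background was 7.58% and 2.46% against muscle, and 17.3% and 18.3% for muscle against MEF. Of 20 tested genes of receptor signalling, 6 were higher and 6 lower in transdifferentiated cells against MEF (median 0.15), 9 rose and 0 fell against muscle (median 0.84, 0 lower also at an unadjusted p below 0.05 and with DESeq2), and 13 fell in muscle against MEF (median -1.12). Dock2, a Rac activator of blood cells, had 8.20 and 8.32 CPM in transdifferentiated cells, 0 and 0 CPM in muscle and 1.05 and 1.02 CPM in MEF. Rac2, the blood-cell Rac GTPase, had 15.9 and 20.7 CPM in transdifferentiated cells, 0.0426 and 0 CPM in muscle and 5.17 and 1.80 CPM in MEF. Both were highest in transdifferentiated cells and at 0 or 1 count in muscle. The widely expressed Gnai2, Gnb1 and Rac1, named after their values were seen, fell in transdifferentiated cells against MEF. They were picked from the list and do not stand for its other genes.

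Receptors for cytokines and danger signals, which drive chemokine transcription, included 1 higher and 6 lower of 14 in transdifferentiated cells against MEF (median -0.78), 3 higher and 0 lower against muscle (median 0.42; edgeR, 1 lower at an unadjusted p below 0.05 and 0 with DESeq2), and 11 lower in muscle against MEF (median -1.08). Il1r1, the interleukin-1 receptor, had 37.2 and 29.9 CPM in transdifferentiated cells, 9.97 and 10.03 CPM in muscle and 68.7 and 82.1 CPM in MEF. The groups were ordered as for Cxcl12. Tlr2, a receptor for bacterial lipoproteins carried by myeloid and other cells, had 21.9 and 17.8 CPM in transdifferentiated cells, 2.26 and 2.49 CPM in muscle and 6.93 and 5.05 CPM in MEF and was the 1 gene of the list that rose against MEF (log2 fold change 1.73 ± 0.33 SE, adjusted p = 0.00499).

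Of 15 tested regulators of NF-kappaB, Tnfaip3 rose and Myd88 fell in transdifferentiated cells against MEF (median -0.17). None was called between transdifferentiated cells and muscle (median -0.07, edgeR, 3 higher at an unadjusted p below 0.05 and 1 higher with DESeq2). In muscle against MEF, 1 was higher (Tnfaip3) and 3 were lower (median -0.31). Tnfaip3, an inhibitor of the pathway, had 24.0 and 25.1 CPM in transdifferentiated cells, 28.8 and 30.5 CPM in muscle and 11.8 and 10.8 CPM in MEF, and Myd88, its adaptor below Il1r1 and most Toll-like receptors, had 18.2 and 19.2 CPM in transdifferentiated cells, 12.6 and 11.1 CPM in muscle and 44.5 and 33.0 CPM in MEF. Tnfaip3 was lower in MEF than elsewhere and Myd88 higher, with no overlap in either case.

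Of 13 inflammatory cytokine genes, 9 were tested, with 2 higher and 3 lower in transdifferentiated cells against MEF (median -0.41), 1 higher and 3 lower against muscle (median -0.59), and 3 higher and 3 lower in muscle against MEF (median -0.69). Csf1, the macrophage growth factor, had 77.4 and 126 CPM in transdifferentiated cells, 177 and 128 CPM in muscle and 1959.7 and 1352 CPM in MEF. Csf1 was highest in MEF, where its receptor transcript Csf1r was lower than in transdifferentiated cells. Il33, an alarmin, had 35.8 and 22.7 CPM in transdifferentiated cells, 10.7 and 14.3 CPM in muscle and 1.93 and 2.62 CPM in MEF and rose in transdifferentiated cells against MEF (log2 fold change 3.68 ± 0.39 SE, adjusted p = 0.000207). Among 13 tested genes that cut, bind or resemble chemokines and their receptors, 1 rose (Ccrl2, named after its value was seen) and 1 fell (Mmp14) in transdifferentiated cells against MEF (median -0.23), 4 rose and 0 fell against muscle (median 1.56, or 0.92 with genes without counts in a group at their bound; edgeR, 0 lower at an unadjusted p below 0.05 and 0 with DESeq2), and 6 fell in muscle against MEF (median -0.78). Mmp2, a protease that trims Cxcl12 and Ccl7, had 304 and 393 CPM in transdifferentiated cells, 147 and 88.0 CPM in muscle and 455 and 359.7 CPM in MEF, with muscle below both other groups.

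Most markers of other leukocytes were too low to be tested. The summed level of 10 neutrophil markers was 1.01 and 2.61 CPM in transdifferentiated cells, 0 and 0.0608 CPM in muscle and 0.660 and 0.631 CPM in MEF, and Csf3r was the 1 marker tested. NK cell markers (6 listed, none tested) summed to at most 0.213 CPM in a library and mast cell markers (6 listed, none tested) to at most 0.922 CPM. T cell markers (9 listed, 2 tested) summed to 15.1 and 15.0 CPM in transdifferentiated cells, 5.88 and 4.68 CPM in muscle and 0.440 and 0.582 CPM in MEF. Most of it was Cd3g and Zap70, while the defining Cd3e and Cd3d stayed at or below 0.469 CPM. The 2 tested were called higher than in MEF both in transdifferentiated cells and in muscle, and 1 was higher in transdifferentiated cells than in muscle. B cell markers (6 listed, 1 tested) summed to 5.33 and 4.01 CPM in transdifferentiated cells, 0.170 and 0.304 CPM in muscle and 1.71 and 2.18 CPM in MEF, with no counts for Ms4a1 in any library. The 1 tested was Blnk, an adaptor of the B cell receptor that myeloid cells also carry, which had 5.11 and 3.92 CPM in transdifferentiated cells, 0.0426 and 0.243 CPM in muscle and 1.32 and 1.75 CPM in MEF and was higher in transdifferentiated cells than in muscle (log2 fold change 5.05 ± 0.71 SE, adjusted p = 0.00268) and lower in muscle than in MEF (log2 fold change -3.50 ± 0.72 SE, adjusted p = 0.00537), but not called against MEF (log2 fold change 1.55 ± 0.53 SE, adjusted p = 0.0612). Its part in the chemokine levels was not tested. Dendritic cell markers (6 listed, 2 tested) summed to 14.0 and 15.8 CPM in transdifferentiated cells, 10.9 and 8.15 CPM in muscle and 6.49 and 7.81 CPM in MEF, nearly all Zbtb46. Endothelial markers (9 listed) had 2 of 7 tested higher and 1 lower in transdifferentiated cells against MEF, with a summed level of 11.2 and 18.3 CPM in transdifferentiated cells, 5.58 and 2.37 CPM in muscle and 22.1 and 20.7 CPM in MEF.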

How the data were processed

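The values are raw counts of reads per gene symbol, which the authors deposited for 6 mouse libraries. Per the labels' protocols, RNA was isolated with Qiagen RNeasy, libraries were made with the Lexogen SENSE kit, and single-end reads of 75 bp came from an Illumina NextSeq instrument. The submitters' processing notes name Trim Galore 0.6.0, HISAT2 2.1.0, featureCounts 1.6.2, DESeq2 1.26.0 and mm10, without their roles. No source used here says whether counting used strand, so reads of overlapping genes on opposite strands (Cxcl10 with Art3, Cxcl16 with Zmynd15, Cx3cr1 with Gm33858, Ackr4 with Acad11) cannot be told apart. The authors' deposited table of log2 fold changes and adjusted p-values was read for comparison alone, with its log2 values and standard errors as given.

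Counts were fitted in 1 model over the 3 groups with edgeR 4.0.16 (R 4.3.3): filterByExpr, TMM scaling, robust quasi-likelihood F test, 3 residual degrees of freedom, biological coefficient of variation 27.3%, Benjamini-Hochberg adjustment over 17400 genes and a threshold of 0.05. With 2 libraries against 2, an exact permutation test cannot give a p below 0.333, so none was used. Standard errors were derived from the F statistic. Ratios against a group with 1 to 3 counts carry exact Poisson intervals at 95% that cover counting error only, and ratios against 0 counts use 3 counts per library as a floor. Alternatives were DESeq2 1.42.0, other scaling, no filter, 2 groups in the fit, a replicate block and leaving out each library. The scripts were tested on simulated counts. The genes, their roles and all lists were chosen with earlier results of these data known. Of the 63 genes, values are given for genes called in any comparison or averaging at least 1 CPM in a group (the 32 tested genes). A few of the genes counted are not reported here by name. Of other lists, not every gene with the smallest adjusted p or called against the majority is named, and some genes outside that rule are. Gene positions are from GENCODE M21, matched by symbol for 61 of 63 genes (not Ccl21c and Ccl21d).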

Additional observations from a re-analysis of the deposited data

How the results depend on the processing

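Of 95 tests of single chemokine and receptor genes, 67 were calls, and 43 of these were kept under every alternative that gave a value, 11 for each but Ccl3 in muscle against MEF, which had 10, while 24 were lost under 1 or more and none changed sign. For 5 of the 95 tests the fit with 2 groups gave no value, since the gene did not pass the filter on low counts there. A further 1, Ackr4 in transdifferentiated cells against muscle, became a call under some. Deviations from the group mean were correlated between same-numbered libraries, at -0.43 for transdifferentiated cells with muscle and -0.71 for transdifferentiated cells with MEF. The correlation was 0.48 for muscle with MEF. By these signs, transdifferentiated replicate 2 went with replicate 1 of muscle and of MEF. A block on the replicate number does not take up this arrangement, whose source was not tested. With the replicate number as a block, 7 of these genes in place of 10 were higher in transdifferentiated cells against MEF (Ccl6, Ccl17 and Pf4 were not called), 22 in place of 23 against muscle (without Ppbp) and 24 in place of 25 lower in muscle against MEF, and 265 in place of 428 of all tested genes were lower in transdifferentiated cells against muscle. Without the filter on low counts that number was 670, and 5 in place of 3 list genes were lower.

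Leaving out each library gave 6 to 10 of the 63 genes higher in transdifferentiated cells against MEF and 14 to 24 higher against muscle. Over all tested genes it gave 1980 to 3223 higher and 1778 to 3445 lower in muscle against MEF, 1280 to 1926 lower in transdifferentiated cells against MEF, and 589 to 1616 higher and 140 to 605 lower in transdifferentiated cells against muscle. Over the lists it gave 13 to 18 lower in transdifferentiated cells against MEF, and 31 to 53 higher and 1 to 4 lower against muscle. The fits without a library hold fewer samples.

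Log2 fold changes near 0 that are not calls changed sign. Over the 11 alternatives, those of transdifferentiated cells against MEF ran from -0.085 to 0.053 for Ccl11 (0.0015 with 2 groups in the fit), -0.34 to 0.092 for Ccl4, -0.45 to 0.14 for Ccl9, -0.14 to 0.74 for Cx3cl1 and -0.55 to 0.16 for Cxcl14. Those of transdifferentiated cells against muscle ran from -0.39 to 0.11 for Ccl27a and -1.30 to 0.069 for Ccl7, and those of muscle against MEF from -0.28 to 0.60 for Ccl25 and -0.98 to 0.80 for Cxcr6. Depth limits the 18 genes with counts that were not tested, and levels at or below 3 counts in a library.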
